A study of Mus musculus with 4 samples.

Results

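The genes of MHC class II antigen presentation were followed in bone marrow-derived macrophages (BMDMs) of WT and *lncLy6c* KO (LNCKO) mice. The list holds 10 genes given by name: H2-Aa, H2-Ab1, H2-Eb1, Cd74, Ciita, H2-DMa, H2-DMb1, H2-DMb2, H2-Oa and H2-Ob. All 10 of 10 were found among the 16375 genes of the deposited table. Bone marrow cells were grown with the growth factor M-CSF, and the macrophages of each genotype were kept with or without 500 µM butyrate, a short-chain fatty acid made by gut bacteria, for 24 h. This gave 4 groups, each with 1 library, called WT control and WT butyrate, and for the knockout LNCKO control and LNCKO butyrate. The LNCKO mice, on a C57BL/6J background, carry a CRISPR-Cas9 deletion over exons 1 and 2 of the long non-coding RNA *lncLy6c*, and WT mice carry no deletion. The study used young mice of either sex. The number of animals behind each library, and whether the libraries came from separate cultures, is not given in the sources used here.

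With 1 library per group there is no replicate check, and no difference given here could be tested. The libraries held from 53363944 to 65521713 fragments, so the 95% counting intervals given are narrow, but they cover counting error only. Expression of *lncLy6c* was not analysed here, since no gene is listed under that name, and the values for LNCKO rest on the sample titles. The names of the LNCKO libraries spell neither the genotype nor the treatment. Which of them is control and which is butyrate thus also rests on the sample labels and could not be checked. The Y-linked gene Ddx3y was at 0.0446 and 0.0320 FPKM (fragments per kilobase of gene per 1000000 fragments) in the WT libraries and at 4.44 and 4.58 FPKM in the LNCKO libraries, so genotype and the sex of the donors cannot be told apart. In these bulk samples, fewer cells of a type and less RNA per cell cannot be told apart either. The macrophage markers Cd68 (from 307 to 340 FPKM), Csf1r (from 38.3 to 46.5 FPKM) and Fcgr1 (from 88.2 to 109 FPKM) were present in all 4 libraries.

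MHC class II molecules carry peptides from engulfed proteins to the cell surface, where CD4 T cells read them. H2-Aa, H2-Ab1 and H2-Eb1 encode chains of the classical molecules, and the invariant chain Cd74 fills the groove of a newly made molecule until it reaches the endosome. There H2-DM, made of H2-DMa and an H2-DMb chain, exchanges the remnant of the invariant chain for peptides, and H2-DO, made of H2-Oa and H2-Ob, restrains H2-DM. Transcription of these genes depends on the coactivator Ciita, which is recruited by factors bound to a conserved pair of promoter elements, the X box and the Y box. In mice, macrophages express class II genes at a low level at rest and much more strongly after interferon gamma, whereas B cells and dendritic cells express them constitutively. H2-Ob is best known from B cells.

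The X and Y elements can be seen in the promoters of the members themselves. RefSeq promoter windows of GRCm38.p6 ran from 250 bases before to 50 bases after the start of the gene. Windows of 7 of the 10 members were searched, and none of H2-Ab1, Cd74 or Ciita. The windows searched thus did not cover every gene. Both strands of each window were searched for the core of the X box, GNAAC, and for the core of the Y box, GATTGG. The Y core holds the CCAAT element as read on the opposite strand. The letters of the cores do not overlap. The pair, with the Y core from 15 to 30 bases after the X core on the same strand, was found for 5 of the 7 genes, H2-Oa, H2-DMb1, H2-Ob, H2-Aa and H2-Eb1, and not in the windows of H2-DMa and H2-DMb2. Among the 32851 windows searched, 84.8% held the X core, 16.1% the Y core and 0.944% (310 windows) the pair. The 5 stretches are shown because they carry the shared feature of genes whose RNA is compared below. They are written 5′ to 3′ on the strand of the gene, with both cores in capitals, and lie at chr17:34287859-34287912 (minus strand) for H2-Aa, chr17:34305768-34305820 for H2-Eb1, chr17:34153089-34153142 for H2-DMb1, chr17:34092295-34092348 for H2-Oa and chr17:34238810-34238860 for H2-Ob (plus strand for these 4).
H2-Aa: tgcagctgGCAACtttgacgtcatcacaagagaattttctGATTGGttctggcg
H2-Eb1: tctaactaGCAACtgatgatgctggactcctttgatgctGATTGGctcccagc
H2-DMb1: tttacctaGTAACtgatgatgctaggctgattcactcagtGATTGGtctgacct
H2-Oa: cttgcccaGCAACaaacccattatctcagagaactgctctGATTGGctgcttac
H2-Ob: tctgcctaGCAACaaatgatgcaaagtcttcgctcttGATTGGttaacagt

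The 5 pairs lie close to the RefSeq start of their genes, with the X core beginning between 94 bases (H2-DMb1) and 76 bases (H2-Oa) before it. The RefSeq start can differ from the start in the gene positions given below. For H2-DMb1 the stretch lies inside those positions. The spacing between the cores was 27 bases for H2-Aa, H2-DMb1 and H2-Oa, 26 bases for H2-Eb1 and 24 bases for H2-Ob. These matches describe the letters of the windows and are no measure of binding.

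In the deposited FPKM, fragments were divided by the length of the whole genomic span of a gene. Levels of different genes were therefore set side by side per kilobase of merged exons, from fragments recovered from the values. On that scale Cd74 led in WT control with 490 fragments per kilobase per 1000000, followed by H2-Eb1 with 97.0, H2-Aa and H2-Ab1 with 69.5 each, H2-DMb1 with 32.0, H2-DMa with 28.3, H2-DMb2 with 20.6, H2-Ob with 17.9, H2-Oa with 11.3 and Ciita with 3.36. The classical chains thus stood above the H2-DM and H2-DO chains, and the coactivator was the lowest of the list. In the other 3 libraries 2 pairs of neighbours changed places, H2-Oa and H2-Ob in WT butyrate and H2-Aa and H2-Ab1 in LNCKO butyrate. Together the 10 genes took 0.179% of all fragments in untreated and 0.203% in butyrate-treated WT macrophages, against 0.177% and 0.178% in those of LNCKO. Their combined share in WT butyrate was 1.14 times that of WT control (95% counting interval 1.1298 to 1.1489), against 1.01 times in LNCKO (0.999 to 1.02).

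The question put to these groups was whether butyrate acts on macrophages through *lncLy6c*. With butyrate, the class II list stood higher in WT and near its control in LNCKO, and this rested on many small differences in 1 library. The member median was 0.18 on the log2(FPKM + 0.1) scale in WT, beside -0.05 for all 10959 genes with a mean of at least 0.1 FPKM, and 0.02 in LNCKO, beside -0.02. Of the 10 members, 7 lay above 0 and 3 below in WT, and 5 lay on each side in LNCKO. Past 0.32 on the log2 scale in either direction, the size used here to call a difference, 1 member (H2-Oa) was higher and 0 were lower with butyrate in WT, where 7.38% of all genes compared were higher and 8.35% lower. In LNCKO no member passed it in either direction, where 3.60% of all genes were higher and 2.64% lower. The difference between the genotypes in the change with butyrate had a member median of 0.20, beside -0.03 for all genes. No member's difference passed the call, against 9.36% of all genes above and 9.72% below. With the libraries scaled by their median ratio, H2-Aa (0.33) and H2-Ab1 (0.33) also passed the call in WT, which made 3 members, where 9.56% of all genes were higher and 5.91% lower. Under that scaling 2 members passed it upward for the difference between the genotypes, beside 10.9% of all genes.

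**Figure D1:**
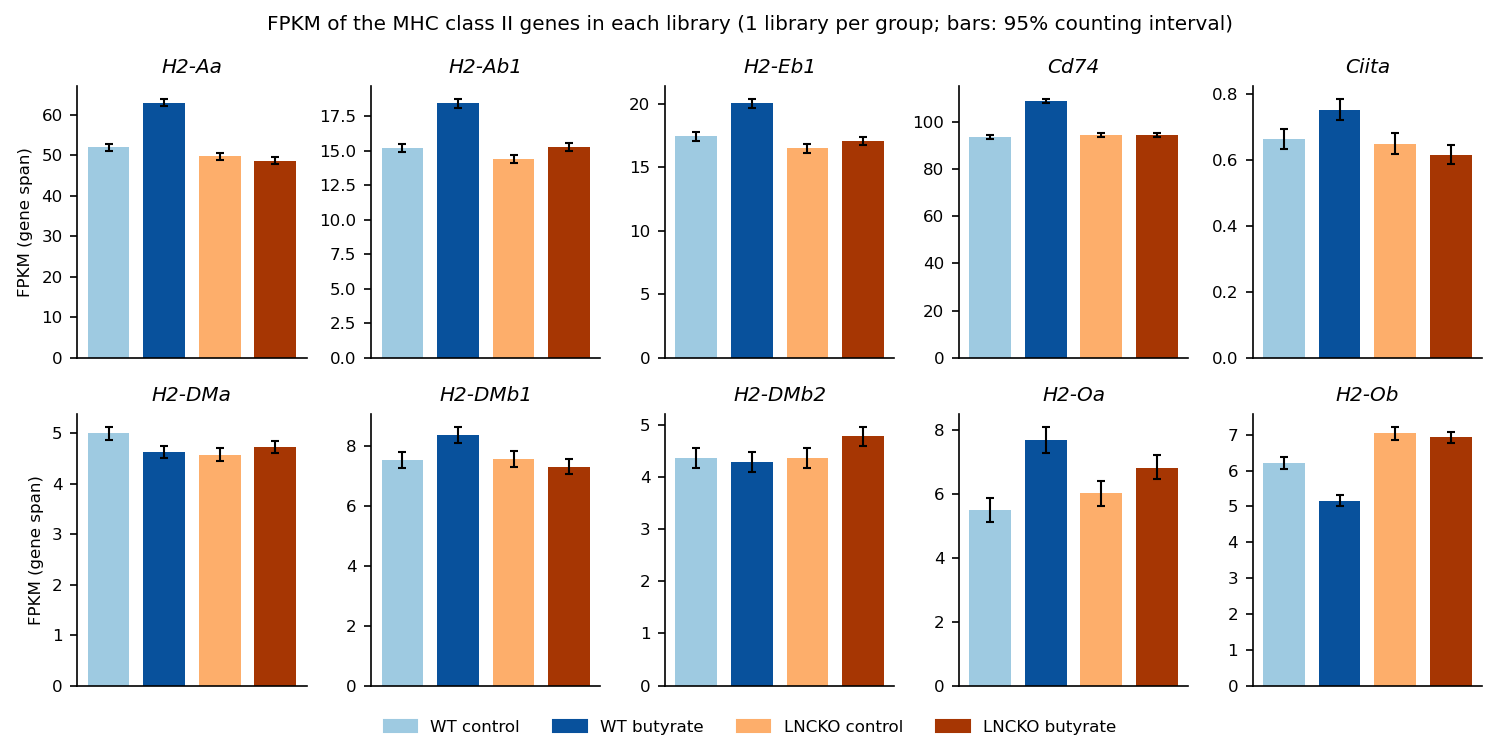
FPKM of each of the 10 genes (vertical axes, FPKM per gene span, each panel with its own scale from 0) in the 4 libraries, with 95% counting intervals as error bars. WT butyrate holds the highest bar in 7 panels and the lowest in 2, H2-DMb2 and H2-Ob.

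For 7 of the 10 members, H2-Aa, H2-Ab1, H2-Eb1, Cd74, Ciita, H2-DMb1 and H2-Oa, WT butyrate was the highest of the 4 libraries, as it was for 23.5% of all genes compared. In each of these 7 its counting interval lay above those of the other 3 libraries. For H2-DMb2 and H2-Ob it was the lowest library, as for 46.4% of all genes, and of these the interval of H2-Ob lay below the other 3. The share of all genes with an interval apart in this way was not computed. These intervals therefore do not set the list apart from other genes. The plot of FPKM by library shows these levels.

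The classical chains and the invariant chain were all highest in WT butyrate. Positions of genes are those of GENCODE M21 on GRCm38. H2-Aa, the alpha chain of I-A (ENSMUSG00000036594, chr17:34282744-34287823, minus strand), was at 51.9 FPKM in WT without butyrate and 62.9 with it, and in LNCKO 49.7 and 48.7. WT butyrate was high and the other 3 libraries lay within 1.07 times of each other. The ratio of butyrate to control was 1.21 in WT (95% counting interval 1.19 to 1.24) and 0.979 in LNCKO (0.956 to 1.00).

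H2-Ab1, the beta chain that pairs with it (ENSMUSG00000073421, chr17:34257689-34269419, plus strand), was at 15.2 FPKM without and 18.4 with butyrate in WT, and 14.4 without and 15.3 with it in LNCKO. Its ratio to control was 1.21 in WT (1.18 to 1.24) and 1.06 in LNCKO (1.03 to 1.09). The ratio of alpha to beta chain per kilobase of exons was 1.00 in both WT libraries, 1.01 in LNCKO control and 0.933 in LNCKO butyrate, so the 2 chains kept step except in the last library. Per gene span this ratio was from 3.19 to 3.46.

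H2-Eb1, the beta chain of I-E (ENSMUSG00000060586, chr17:34305867-34316674, plus strand), was at 17.4 FPKM in untreated and 20.1 in butyrate-treated WT macrophages, against 16.5 and 17.1 in those of LNCKO. Mice of the C57BL/6 background are known to lack the I-E alpha chain and show no I-E at the surface. WT butyrate was again the highest library, with a ratio to its control of 1.15 (1.12 to 1.18) against 1.04 in LNCKO (1.01 to 1.06).

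Cd74, the invariant chain (ENSMUSG00000024610, chr18:60803848-60812652, plus strand), was at 93.5 FPKM in WT without butyrate and 109 with it, and in LNCKO 94.4 and 94.3. It is the best counted member, with 44378 to 56683 fragments per library, and its 3 lower libraries differed by no more than 1.01 times. The ratio to control was 1.16 in WT (1.15 to 1.18) and 0.998 in LNCKO (0.986 to 1.01). As log2 changes, H2-Aa, H2-Ab1, H2-Eb1 and Cd74 were at 0.28, 0.28, 0.20 and 0.22 in WT, which placed them above from 86.2% to 90.7% of all genes compared but short of the call. In sum these 4 genes took 0.145% of the fragments without and 0.171% with butyrate in WT, and 0.143% without and 0.144% with it in LNCKO. The sum was 1.18 times its control in WT (1.17 to 1.19) and 1.01 times in LNCKO (0.997 to 1.02). Per kilobase of exons, Cd74 exceeded H2-Aa 7.06-fold in untreated and 6.77-fold in butyrate-treated WT macrophages, against 7.45-fold and 7.60-fold in those of LNCKO. Per gene span the ratio was smaller, from 1.73 to 1.94.

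Ciita, the coactivator without which class II genes are silent (ENSMUSG00000022504, chr16:10480059-10528418, plus strand), was at 0.663 FPKM in WT without butyrate and 0.753 with it, and in LNCKO 0.649 and 0.617. Its span is 48360 bases long, and 1676 to 2156 fragments lay behind each value. The order of the libraries followed that of H2-Aa, with a ratio to control of 1.135 in WT (1.07 to 1.21) and 0.9495 in LNCKO (0.889 to 1.01). Of its exon bases, 3.45% are shared with Dexi on the opposite strand, which was at no more than 0.201 FPKM in any library, and whether the counting used strand is not given in the sources used here.

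**Figure D2:**
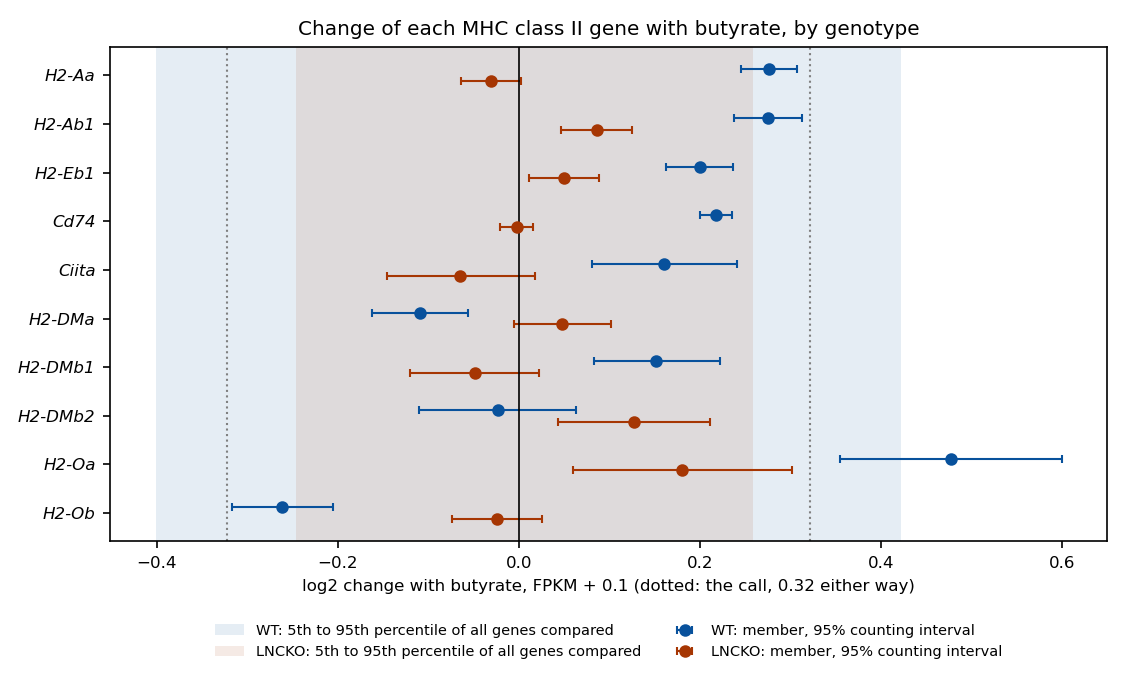
Log2 change with butyrate of each gene (horizontal axis, on FPKM + 0.1) in WT and LNCKO, with 95% counting intervals carried to this scale, the 5th to 95th percentile of all genes compared as shaded bands and the call, 0.32 either way, as dotted lines. H2-Oa at 0.48 in WT is the one point beyond a dotted line.

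The chains of H2-DM, the peptide exchange factor, differed from one another, and none passed the call. H2-DMa, its alpha chain (ENSMUSG00000037649, chr17:34119541-34139101, plus strand), was at 4.997 FPKM without and 4.63 with butyrate in WT, and 4.57 without and 4.73 with it in LNCKO. Here WT control was the highest library, and the ratio of butyrate to control was 0.926 in WT (0.891 to 0.961) and 1.04 in LNCKO (0.996 to 1.07). Of its exon bases, 10.4% overlap Brd2 on the opposite strand, a gene at 34.7 to 38.2 FPKM, and without strand the reads of both cannot be told apart.

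The beta chain has 2 near-identical genes in the mouse, whose reads the counting could split. H2-DMb1 (ENSMUSG00000079547, chr17:34153072-34160230, plus strand) was at 7.51 FPKM in untreated and 8.35 in butyrate-treated WT macrophages, against 7.55 and 7.30 in those of LNCKO, with WT butyrate highest. H2-DMb2 (ENSMUSG00000037548, chr17:34143307-34151555, plus strand) was at 4.36, 4.29 and 4.37 FPKM in the first 3 of these libraries and highest in LNCKO butyrate, at 4.79. The ratio to control was 1.11 in WT (1.06 to 1.17) and 0.966 in LNCKO (0.919 to 1.02) for H2-DMb1, and 0.984 in WT (0.925 to 1.05) and 1.10 in LNCKO (1.03 to 1.16) for H2-DMb2. The ratios of the 2 genes thus lay on opposite sides of 1, and their summed fragments gave 1.06 in WT (1.02 to 1.10) and 1.02 in LNCKO (0.980 to 1.06). Per kilobase of exons, H2-DMa over both beta chain genes together was 0.539 in WT without butyrate and 0.470 with it, and in LNCKO 0.491 and 0.4999, and per gene span it ran from 0.366 to 0.421.

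H2-DO, the partner that restrains H2-DM, held both extremes of the list for the change in WT, with its chains in opposite directions. H2-Oa, the alpha chain (ENSMUSG00000024334, chr17:34092340-34095234, plus strand), was at 5.49 FPKM without and 7.68 with butyrate in WT, and 6.01 without and 6.83 with it in LNCKO. WT butyrate was the highest library and LNCKO butyrate the next. H2-Oa rose past the call in WT, with a ratio of 1.40 (1.28 to 1.53), and was at a ratio of 1.14 in LNCKO (1.04 to 1.24). Its log2 change in WT, 0.48, exceeded that of 96.0% of all genes compared, and its change in LNCKO, 0.18, exceeded 91.5%. H2-Oa is the least counted member, with 896 to 1316 fragments, and 22.8% of its exon bases are shared with BC051537 on the opposite strand, which was not analysed here.

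H2-Ob, the beta chain (ENSMUSG00000041538, chr17:34238903-34254414, plus strand), was at 6.20 FPKM in untreated and 5.16 in butyrate-treated WT macrophages, against 7.04 and 6.92 in those of LNCKO. WT butyrate was low and both LNCKO libraries were high. The ratio to control was 0.832 in WT (0.800 to 0.865), a log2 change of -0.26 that stayed short of the call, and 0.983 in LNCKO (0.9495 to 1.02). Per kilobase of exons the ratio of H2-Oa to H2-Ob was 0.632 in WT without butyrate and 1.06 with it, and in LNCKO 0.609 and 0.704, and per gene span from 0.854 to 1.49. The combined H2-DO over H2-DM chains varied less, with 0.360 and 0.374 in WT and 0.415 and 0.422 in LNCKO, and per gene span they ran from 0.693 to 0.818.

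Between the genotypes the list was level without butyrate and lower in LNCKO with it. These comparisons share libraries with those above, so they restate the same values from another side. Without butyrate the member median of LNCKO against WT was -0.01 on the log2 scale, beside 0.02 for all genes, with 5 members above 0 and 5 below, and no member passed the call, against 4.50% of all genes higher and 3.76% lower. The members furthest apart were H2-Ob, at 0.18 (ratio 1.14, 1.09 to 1.18), and H2-DMa, at -0.13 (0.915, 0.880 to 0.951). With butyrate the member median was -0.20, beside 0.05 for all genes, with 3 members above 0 and 7 below. H2-Aa was lower in LNCKO past the call, with a log2 difference of -0.37 (ratio 0.773, 0.757 to 0.789), as were 7.16% of all genes. H2-Ob was higher past the call, with 0.42 (ratio 1.34, 1.29 to 1.39), as were 8.60% of all genes. H2-Ab1 (-0.27), Ciita (-0.25), H2-Eb1 (-0.23) and Cd74 (-0.21) lay below 0 without passing it. H2-Ab1 passed it (-0.33) with the libraries scaled by their median ratio, which made 2 members lower, where 9.04% of all genes were lower and 6.24% higher.

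Of the factors that hold Ciita at the promoters, some fell in WT and none rose. Rfx5 and Rfxap, subunits of the RFX complex that binds the X box, fell with butyrate in WT, by 0.38 and 0.42 on the log2 scale. Rfx5 was at 5.97 FPKM without and 4.55 with butyrate in WT, and 5.89 without and 5.81 with it in LNCKO. Rfxap was at 3.01, 2.22, 2.86 and 2.95 FPKM in the same order. For both genes WT butyrate was the low library, as for 46.4% of all genes compared, and the other 3 lay close together. Creb1 (-0.25), the Y box subunits Nfya (-0.13), Nfyb (-0.13) and Nfyc (-0.04), and the third RFX subunit Rfxank (0.04) stayed within the call. Of the 8 factors, Ciita included, 0 rose and 2 fell in WT, with a median of -0.13, and none passed the call in LNCKO, with a median of -0.02. Beside this and each list below, 7.38% of all genes compared were higher and 8.35% lower in WT. In LNCKO 3.60% were higher and 2.64% lower.

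Interferon gamma signalling is the main route to Ciita in macrophages, and the median of its 9 genes was 0.05 in WT and 0.01 in LNCKO, with none past the call in LNCKO. Jak2, a kinase of the interferon gamma receptor, was at 3.04 FPKM in untreated and 2.30 in butyrate-treated WT macrophages, against 3.05 and 2.98 in those of LNCKO, and fell by 0.38 on the log2 scale in WT. WT butyrate was thus the low library for Jak2, as for 46.4% of all genes compared, and the other 3 lay close together. Ifngr1 (0.13), a chain of that receptor, and the transcription factors Irf1 (0.16) and Irf8 (0.05) stayed within the call in WT.

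**Figure D3:**
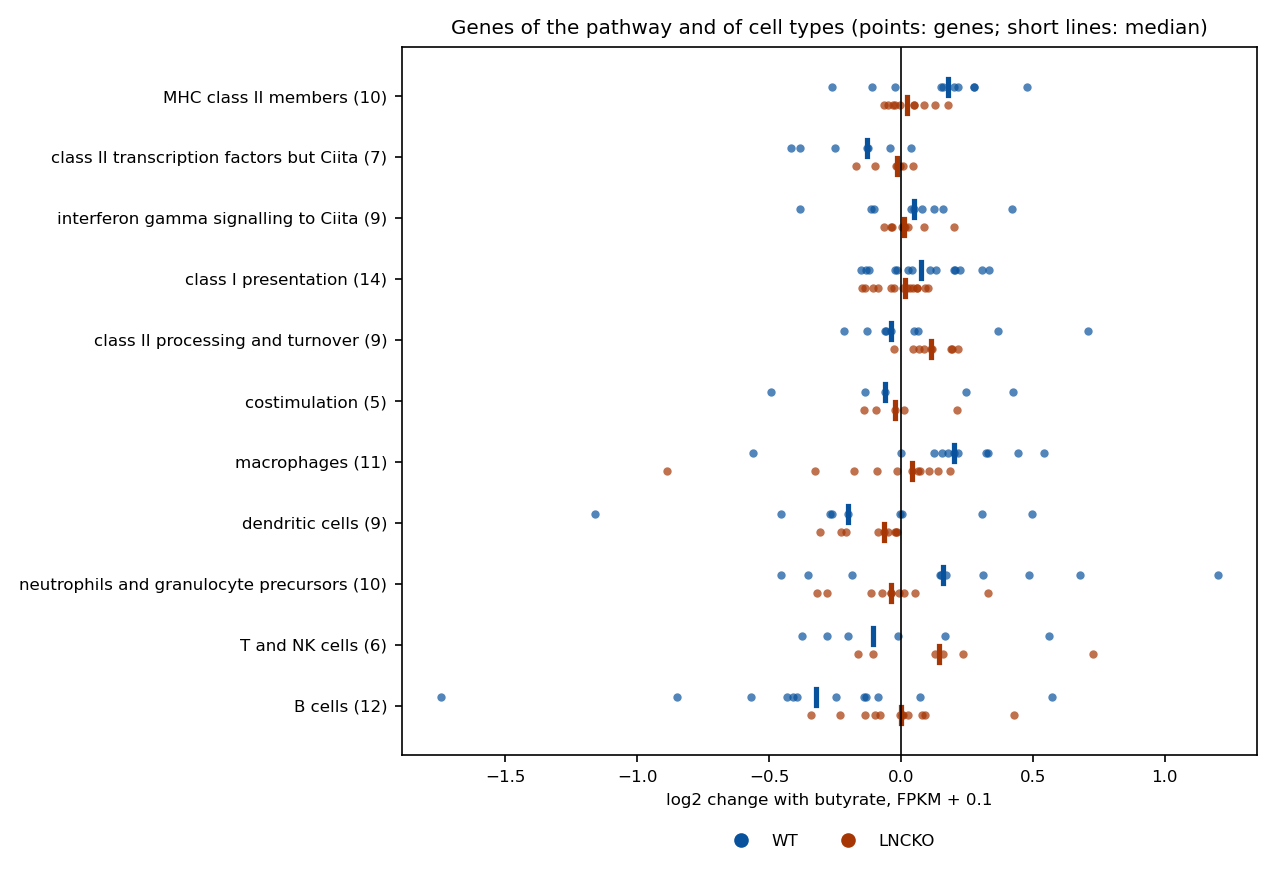
Log2 change with butyrate (horizontal axis, on FPKM + 0.1) of the genes of each list with a mean of at least 0.1 FPKM, with the number of genes in brackets, points for genes and short lines for the list's median, in WT and LNCKO. The class II median lies at 0.18 in WT, and the B cell median at -0.32.

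Genes that prepare peptides and set the life of class II molecules gave 2 rises and no falls among 9 in WT (median -0.04), and none in LNCKO (median 0.11). Ctsl, a cathepsin that cuts the invariant chain, rose in WT from 79.1 to 102 FPKM (0.37) and was at 83.7 and 97.2 FPKM in LNCKO (0.22). H2-Eb2, a class II beta chain gene beside H2-Eb1, rose in WT from 0.605 to 1.05 FPKM (0.71) and was at 0.4998 and 0.538 FPKM in LNCKO (0.09). Ctss, the cathepsin best known for this step, was at 127 and 131 FPKM in WT and at 119 and 136 FPKM in LNCKO, and the thiol reductase Ifi30 was at 69.4 and 66.5 FPKM in WT and at 61.5 and 70.2 FPKM in LNCKO. Of 5 costimulation genes with a mean of at least 0.1 FPKM, Cd80 rose in WT (from 0.364 to 0.523 FPKM) and Cd40 fell (from 1.69 to 1.17 FPKM), with a median of -0.06, and none passed the call in LNCKO (median -0.02).

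Class I presentation was followed as the neighbouring pathway. Of its 14 genes, Psmb9 alone rose in WT and none fell, with a median of 0.08, and none passed the call in LNCKO (median 0.02). Psmb9, a subunit of the immunoproteasome, was at 28.4 FPKM in WT without butyrate and 35.8 with it, and in LNCKO 30.1 and 30.9. Tap2, a subunit of the peptide transporter, was at 15.1, 18.7, 15.1 and 15.4 FPKM in the same order. The heavy chains H2-K1 (738, 848, 776 and 801 FPKM) and H2-D1 (798, 931, 817 and 853 FPKM) were likewise highest in WT butyrate, at log2 changes of 0.20 and 0.22 in WT and 0.05 and 0.06 in LNCKO, while B2m, their light chain, was at 0.04 in WT and 0.09 in LNCKO. Psmb8, Psmb9, Tap1 and Tap2 lie within the class II region, and of 5 such genes of that region with a mean of at least 0.1 FPKM, Brd2 included, 1 (Psmb9) rose and 0 fell in WT, with a median of 0.20, against 0.02 in LNCKO.

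Other cells that express class II genes could be present in a culture grown from bone marrow, and their markers moved with WT butyrate. Of 12 B cell genes, 6 fell and 1 rose with butyrate in WT, with a median of -0.32, and 1 fell and 1 rose in LNCKO, with a median of 0.00. The summed level of the list was 226 FPKM without and 180 with butyrate in WT, and 231 without and 234 with it in LNCKO, and no marker was at 0. Cd79a, a chain of the B cell receptor complex, was at 68.3 FPKM in untreated and 51.3 in butyrate-treated WT macrophages, against 69.3 and 69.2 in those of LNCKO. Its WT butyrate value was the low one, as for H2-Ob and opposite to H2-Aa, Cd74 and Ciita. Cd79b, its partner chain, was at 82.2, 62.5, 82.8 and 84.4 FPKM and Ms4a1 at 19.5, 18.4, 19.4 and 20.5 FPKM in the same order. Fcer2a, the low-affinity IgE receptor, rose in WT from 0.691 to 1.08 FPKM, and Cd22 was at 13.2 and 13.9 FPKM there. The part of B cells in the class II values was not tested.

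Of 9 dendritic cell genes with a mean of at least 0.1 FPKM, 1 rose (Batf3, from 0.197 to 0.318 FPKM) and 2 fell in WT (Siglech, from 7.66 to 5.57 FPKM, and Cd209a, from 0.441 to 0.142 FPKM), with a median of -0.20. None passed the call in LNCKO (median -0.07). The summed level was 20.9 FPKM in WT without butyrate and 18.3 with it, and in LNCKO 19.3 and 18.6, and no marker was at 0. Flt3, the receptor of a dendritic cell growth factor, was at 0.563 and 0.452 FPKM in WT and at 0.564 and 0.525 FPKM in LNCKO. Ccr7, the receptor that guides these cells to lymph nodes, was at 7.91 and 7.88 FPKM in WT and at 6.96 and 6.89 FPKM in LNCKO. The part of dendritic cells was not tested.

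Of 11 macrophage genes, 4 rose and 1 fell with butyrate in WT, with a median of 0.20, and 0 rose and 2 fell in LNCKO, with a median of 0.04. C1qa, which encodes a chain of complement C1q, was at 179 FPKM without and 225 with butyrate in WT, and 177 without and 186 with it in LNCKO. C1qb was at 119, 149, 115 and 114 FPKM in the same order. Both had the order of libraries seen for Cd74 in that WT butyrate stood above 3 close values. Cd14 fell in both genotypes, from 88.6 to 59.98 FPKM in WT and from 95.6 to 76.3 FPKM in LNCKO. The summed level was 2881 FPKM in untreated and 3888 in butyrate-treated WT macrophages, against 2503 and 1787 in those of LNCKO. Lyz2, the lysozyme of myeloid cells, was the largest term of that sum in each library and rose in WT (from 1972 to 2871 FPKM) and fell in LNCKO (from 1609 to 869.9 FPKM). The part of a different share of macrophages in the class II values was not tested.

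Neutrophil and precursor genes also stood apart in WT butyrate, where 3 of 10 rose and 2 fell, with a median of 0.16. In LNCKO 1 rose and 0 fell, with a median of -0.04. Their summed level was 2668 FPKM in WT without butyrate and 3086 with it, and in LNCKO 2327 and 2240. The T and NK cell genes summed to 14.4, 19.2, 17.0 and 16.1 FPKM in the same order. Of 6 with a mean of at least 0.1 FPKM, 1 rose and 1 fell in WT (median -0.11), and 1 rose and 0 fell in LNCKO (median 0.14). Nkg7, a granule protein of cytotoxic cells, was the largest term of that sum, at 10.5, 15.6, 13.3 and 11.9 FPKM, and Cd3e, a chain of the T cell receptor complex, was at no more than 0.174 FPKM. No marker of either list was at 0.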

How the data were processed

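Gene expression was read from the deposited table, in which the authors gave FPKM for each gene and library, without counts. The submitters' processing notes name STAR 2.5.0c, Picard 1.126, bedtools 2.17.0, HTSeq 0.6.0 and the build GRCm38 (mm10) without a role for each, and the labels and methods differ on the RNA kit and the sequencer. For each library, the total that turns FPKM times gene span (GENCODE M21) into whole fragments was searched. Within 0.02 of a whole number in all 4 libraries were 98.5% of 16342 matched genes on the span, 6.99% on merged exons, and all 10 members. Shares carry exact Clopper-Pearson intervals and ratios exact conditional binomial intervals, both at 95%. Reads had no molecular identifiers, so the intervals cover counting error only.

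Differences are log2 ratios of FPKM + 0.1, which understates changes of low genes, and a difference past 0.32 on this scale was called. All genes with a mean of at least 0.1 FPKM (10959) served as background, and the 10 members passed this filter. With 1 library per group no test was run. The members, the lists and the call were chosen with earlier results of these data known. Genes named are the members, genes of the lists (class II transcription factors, interferon gamma signalling, class II processing, costimulation, class I presentation, other genes of the class II region, and markers of B cells, dendritic cells, macrophages, T and NK cells and neutrophils) and the 5 genes with the pattern nearest to the members. Some genes of the lists are not reported here by name. Ddx3y was added after its values had been seen. Alternatives were other pseudocounts, scalings, filters, a fold of 2, exon lengths and the sum of both H2-DMb genes. The steps were tested on simulated data. Computations ran in Python 3.11.15 with pandas 2.3.3, scipy 1.17.1 and numpy 2.4.6, and plots were drawn with matplotlib 3.10.9.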

Additional observations from a re-analysis of the deposited data

How the results depend on the processing

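No paired analysis was possible because each group has 1 library, and for the same reason no library could be left out. No result reversed. With the libraries scaled by their median ratio, the number of members higher with butyrate in WT was 3 (H2-Oa, H2-Aa and H2-Ab1), the members lower in LNCKO under butyrate were 2 (H2-Aa and H2-Ab1), the members with a larger change in WT than in LNCKO were 2, and the member median of LNCKO against WT under butyrate was -0.26 in place of -0.20. With a fold of 2 as the call, 0 members were called higher in WT, and 0 higher and 0 lower under butyrate. The other 74 of 80 counts of members and 24 of 25 member medians stayed within their tolerance. Of 250 values of single members, 28 moved past their tolerance. These were 14 with the libraries scaled by their median ratio, 12 with FPKM rescaled to 1000000 per library and 2 with a pseudocount of 1. Of the 250 values, 6 changed sign, all under the median ratio scaling and the largest of them 0.03 in size before it. The largest shift of any value was 0.13. The 24 ratios between members depended on the length used, and are given per kilobase of exons and per gene span. The shares of all genes past the call depended more on the settings: in WT, 7.38% higher and 8.35% lower became 2.51% and 2.16% with a pseudocount of 1 and 0.903% and 0.484% with a fold of 2. In WT the share higher was 4.64% among genes with a mean of at least 1 FPKM, and the share lower was 14.8% with FPKM rescaled to 1000000 per library. Counting precision limits H2-Oa and Ciita most, and the spread between animals or cultures is unknown for every value.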

Other observations

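Many genes other than the members had a pattern across the 4 libraries like the mean of the members. The mean was taken over 9 members, with the centred log2(FPKM + 0.1) of each, and the likeness was measured as the root mean square distance over the 4 libraries among 6800 other genes. The 5 nearest genes were Htatsf1 (distance 0.0072), Necap2 (0.0084), Ddx19a (0.0087), Psme2b (0.0087) and N4bp1 (0.0089), where the median gene was at 0.106 and 619 genes lay within 0.05. Psme2b was at 219.8 FPKM in untreated and 241 in butyrate-treated WT macrophages, against 218 and 228 in those of LNCKO. The members themselves lay further from their mean than these genes, from 0.0398 (H2-DMb1) and 0.0415 (Cd74) to 0.131 (H2-Oa) and 0.224 (H2-Ob). With 4 libraries such a likeness is a description.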
